A study of Homo sapiens with 6 samples.

Results

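Mitochondrial DNA is copied and transcribed by proteins that are encoded in the nucleus, and the nuclear genes of 10 of them are described here by their GABPA binding. The genes were TFAM, POLRMT, TFB2M, TFB1M and TEFM (transcription), MTERF3 and MTERF4 (MTERF family), and SSBP1, TWNK and POLG (replication). They were chosen by name, with earlier results of these data known. All 10 were found among 19974 protein-coding genes of chromosomes 1 to 22 and X in the RefSeq gene table. Of the 10 genes, 7 had a GABPA peak by an end of the gene in all 3 libraries, 1 (TFAM) had a peak in a single control library, and MTERF3 and POLG had none.

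Chromatin immunoprecipitation with sequencing (ChIP-seq) mapped GABPA in the melanoma line A-375, an established line of human skin tumour cells. There were 3 ChIP libraries with 1 library per condition, each with an input sample that was not analysed here. The parental cells carried no knockout. The other control was a line with a knockout at ROSA26, a site often used as a neutral target. In the third line, the B1 subunit gene of GABP carried a knockout at exon 2, after which TERT, the catalytic subunit of telomerase, was knocked in. The sample titles call this a TERT rescue. Both edited lines were grown from single sorted cells, per the labels, so each is 1 clone. Effects of the B1 knockout, of added TERT and of the clone cannot be told apart. The same GABPA antibody was used in the 3 libraries. With no replicate in any condition no test between conditions was possible, and the values of the 3 libraries are set side by side. Peak lists hold no expression, so the identity of the cell line was not checked against marker genes.

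GABP is an ETS family transcription factor in which GABPA contacts DNA at sites built on the bases GGAA and a B subunit carries the activation domain. It has long been known as a nuclear respiratory factor, because many nuclear genes of the mitochondrion carry such sites in their promoters. The proteins described here work inside the mitochondrion. POLRMT is the mitochondrial RNA polymerase, TFAM packages and bends the DNA, and TFB2M helps POLRMT to open the promoter. TEFM keeps the polymerase moving, and TFB1M methylates the RNA of the small mitochondrial ribosomal subunit. TWNK is the helicase, POLG the catalytic subunit of the DNA polymerase and SSBP1 the protein that covers single-stranded DNA during replication.

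The lists held 3024 parental, 3857 ROSA26 and 1660 B1 knockout peaks. The number of reads over each summit, the highest point of a peak, was recovered from the values in the lists. The library-wide background, which 575, 614 and 340 of the peaks had as their local background, was 15.4 reads (parental), 14.2 reads (ROSA26) and 9.86 reads (B1 knockout), and was lowest in the knockout. A gene was counted as marked when a summit was no more than 1 kb from an end of its RefSeq span. The fold enrichment of a peak is the authors' own value, the summit signal over the local background, and describes a peak within its list. The median fold of all peaks was 6.36, 6.02 and 5.81 in the parental, ROSA26 and knockout list. A place with no listed peak lies below the limit of the peak caller and is not shown to be free of GABPA.

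A parental peak was listed at 7 of the 10 genes, against 15.5% of all protein-coding genes. In the ROSA26 library 8 of 10 had a peak, against 18.5%, and in the B1 knockout library 7 of 10, against 9.32%. The 7 genes of the parental and the knockout library were the same, namely POLRMT, TFB2M, TFB1M, TEFM, MTERF4, SSBP1 and TWNK. Over all protein-coding genes, 9.27% had a peak in the 3 lists. Because the 10 genes were chosen with earlier results known, these shares stand beside the counts as background and not as a test. Each marked gene had 1 peak per library, 22 peaks in all. No summit lay more than 138 bp from the gene end it was assigned to. Between the 3 libraries the summits of 1 gene differed by 10 bp at POLRMT to 32 bp at TFB1M. By role, 4 of the 5 transcription genes, 1 of the 2 MTERF genes and 2 of the 3 replication genes were marked in all 3 libraries.

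At most of these starts the DNA held the letters that GABPA is known to contact. Promoter windows of 250 bases before to 50 bases after a start were taken from a RefSeq table of GRCh38.p14, in which 8 of the 10 genes matched (TWNK and MTERF3 did not). The ETS core CCGGAAG, read on both strands, was in the windows of 5 of these 8 genes: POLRMT, TFB1M, TEFM, MTERF4 and SSBP1. It was in 12.8% of 22132 windows of protein-coding genes, and in 64.2% of the 2429 windows that held a parental summit. The shorter core CGGAAG, which every CCGGAAG contains, was in 6 of 8, the sixth being TFB2M, against 23.7% of all windows and 82.8% of those with a parental summit. All 6 were genes with a peak in the 3 libraries. Neither TFAM nor POLG held CGGAAG in its window. Only exact letters were searched, so a window without them may still hold GGAA in other surroundings. The 120 bases before the TFAM start held GGAA on the opposite strand, as TTCC in tattcctcc, caattccgcc and gatttccc. The 120 bases before the POLG start held GGAA on neither strand. How often GGAA alone occurs in all windows was not tested. A match is a description of the letters and not a measured binding site.

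The stretches below are from the same table, each 5′ to 3′ on the strand of the gene, with the ETS letters in capitals on either strand. Of the 3 copies in MTERF4 the farthest lies outside its stretch. The stretches are shown to set the genes with strong peaks beside POLRMT, whose peak was weak, and beside TFAM and POLG. For SSBP1 only the site is shown, because it lies past the start of the gene's span. SSBP1 has 3 promoter windows, and thus more than 1 annotated start.
MTERF4, chr2:241102273-241102392, minus strand: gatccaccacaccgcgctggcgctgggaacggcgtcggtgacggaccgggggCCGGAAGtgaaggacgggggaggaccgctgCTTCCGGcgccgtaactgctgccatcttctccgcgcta
TEFM, chr17:30906224-30906343, minus strand: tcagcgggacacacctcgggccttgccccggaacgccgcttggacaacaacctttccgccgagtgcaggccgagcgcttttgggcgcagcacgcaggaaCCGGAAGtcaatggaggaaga
TFB2M, chr1:246566247-246566366, minus strand: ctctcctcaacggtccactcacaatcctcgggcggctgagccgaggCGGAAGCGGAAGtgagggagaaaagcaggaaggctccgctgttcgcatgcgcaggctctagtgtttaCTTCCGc
TFB1M, chr6:155314554-155314673, minus strand: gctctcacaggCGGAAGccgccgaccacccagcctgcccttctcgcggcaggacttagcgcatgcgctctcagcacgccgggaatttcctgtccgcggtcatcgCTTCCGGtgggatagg
POLRMT, chr19:633568-633687, minus strand: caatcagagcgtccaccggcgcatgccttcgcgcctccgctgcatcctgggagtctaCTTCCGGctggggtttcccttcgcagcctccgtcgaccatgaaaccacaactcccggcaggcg
SSBP1, chr7:141738352-141738381, plus strand: ttccctgtgcgCCGGAAGtgatcccctgcg
TFAM, chr10:58385290-58385409, plus strand: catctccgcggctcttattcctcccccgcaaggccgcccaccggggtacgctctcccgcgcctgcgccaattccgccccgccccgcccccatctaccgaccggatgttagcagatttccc
POLG, chr15:89334825-89334944, minus strand: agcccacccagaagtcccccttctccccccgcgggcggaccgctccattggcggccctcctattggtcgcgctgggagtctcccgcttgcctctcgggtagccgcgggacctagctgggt

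The arrangement of the letters differed from gene to gene. MTERF4 held 3 copies of CCGGAAG, at 189, 53 and 23 bp before the gene start, and 3 or more copies were in 0.348% of all windows and in 2.92% of those with a parental summit. TEFM held 1 copy that ended on the first base of the gene, 6 bp before it at its own first base. TFB2M held no CCGGAAG but 3 copies of CGGAAG, of which 2 stood back to back, 59 and 53 bp before the start. Such a pair was in 0.33% of all windows and in 2.76% of those with a parental summit. TFB1M held CCGGAAG at 85 bp and CGGAAG at 178 bp before the start. POLRMT held 1 CCGGAAG, 93 bp before the start. In SSBP1 the 1 copy lay 42 bp past the start of the gene's span. The longer form CCGGAAGT was in 4 of the 8 genes (POLRMT, TEFM, MTERF4 and SSBP1) in 5.35% of all windows and in 37.6% of those with a parental summit.

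Of 18 summits at the 6 genes with CGGAAG, 16 lay within 50 bp of the nearest copy. At MTERF4 the parental summit lay on the motif itself, and the ROSA26 and knockout summits 8 and 7 bp from it. At TEFM the parental summit also lay on the motif, with the ROSA26 summit 23 bp and the knockout summit 2 bp away. At TFB1M the nearest copy was 35, 21 and 44 bp away. At POLRMT the distances were 6, 7 and 16 bp, and at TFB2M 19, 0 and 17 bp, in the order parental, ROSA26, knockout. SSBP1 had the largest distances, 62, 38 and 59 bp, and its summits lay on the upstream side of the motif. The sources used here give no fragment length, so the precision of a summit is not known.

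**Figure D1:**
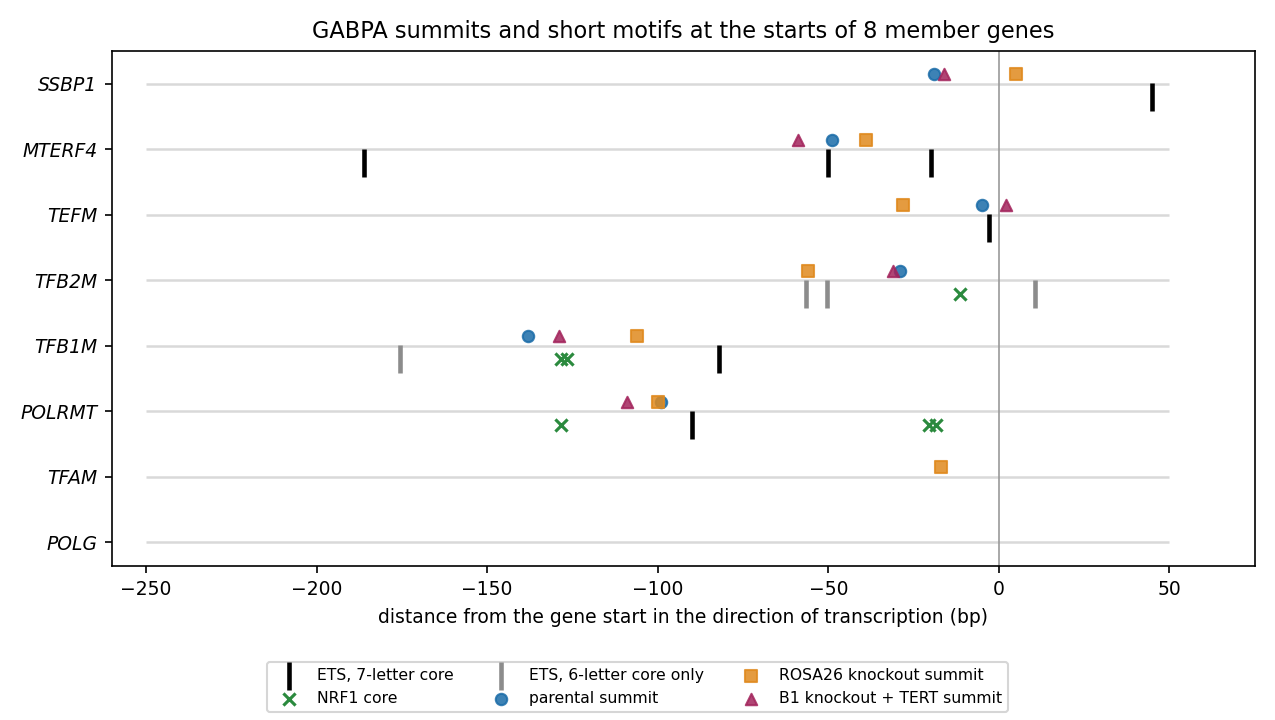
Summits of GABPA peaks (symbols above each line) and motif centres (marks below it) at 8 genes, by distance in bp from the gene start in the direction of transcription; grey lines span the window of 250 bp before to 50 bp after the start. The summits of the 6 genes with CGGAAG lie within 62 bp of a copy. TFAM has a ROSA26 summit 17 bp before its start and holds neither CGGAAG nor the NRF1 core GCGCATGC in its window.

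Cores of other promoter factors were read in the same windows. GCGCATGC, the core of NRF1, another nuclear respiratory factor, was in the windows of POLRMT, TFB2M and TFB1M in 3.74% of all windows and in 5.72% of those with a parental summit. The copies on opposite strands 2 bp apart at TFB1M, and likewise at POLRMT, overlap and are each 1 palindromic place. These 3 genes held both NRF1 and CGGAAG letters, a combination in 1.33% of all windows and 5.15% of those with a parental summit. All 3 are genes of mitochondrial transcription or ribosomal RNA methylation. GGGCGG, the core bound by SP1, was in 7 of the 8 windows, all but TEFM, against 56.3% of all windows and 69.3% of those with a parental summit. TFAM held 5 copies of it, 3 of them in a row with an overlap of 1 base.

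Among the transcription genes, TEFM and TFB2M carried strong peaks. TEFM (GRCh38 chromosome 17, 30898986 to 30906238) had folds of 13.7 (parental), 16.2 (ROSA26) and 9.57 (knockout). The reads over its summit were 284 (95% counting interval 252 to 319), 326 (292 to 363) and 175 (150 to 203). These intervals are exact Poisson intervals that cover counting error only, since reads without molecular identifiers are not independent molecules. The peaks spanned 725, 858 and 789 bp, and the summits lay 5 bp before, 28 bp before and 2 bp past the gene start. TEFM was the 1 marked gene whose knockout peak was wider than its parental peak.

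TFB2M (chromosome 1, 246540561 to 246566261) had folds of 11.3, 10.1 and 7.20 in the parental, ROSA26 and knockout list. Its summit reads were 304 (271 to 340), 353 (317 to 392) and 148 (125 to 174), the highest of the 10 genes in both controls. TFB2M ranked lower by fold than by reads, and its local background was 1.68, 2.39 and 1.99 times the background of its library. The same peak lay 166 bp (parental summit) from an end of CNST, a neighbouring gene, so it cannot be given to TFB2M alone.

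TFB1M and POLRMT had weaker peaks. TFB1M (chromosome 6, 155229871 to 155314484) had folds of 8.16, 9.24 and 4.34 in the parental, ROSA26 and knockout list. Its summit reads were 134 (112 to 159), 183 (157 to 212) and 60 (45.8 to 77.2). Its summits lay 138, 106 and 129 bp before the start, farther out than those of the other marked genes.

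POLRMT (chromosome 19, 617221 to 633537) had folds of 5.50, 5.44 and 4.63 in the parental, ROSA26 and knockout list, below the median of each list. Its summit reads were 114 (94.0 to 137), 154 (131 to 180) and 59 (44.9 to 76.1). The summits lay 99, 100 and 109 bp before the start, inside the span of an uncharacterised non-coding RNA gene, LOC105372234. The peak was 525 and 619 bp wide in the controls and 406 bp in the knockout.

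TFAM (chromosome 10, 58385410 to 58399220) had a peak in the ROSA26 library alone. The peak spanned 508 bp, its summit lay 17 bp before the gene start, and its fold was 3.68. It held 55 reads (41.4 to 71.6) over a local background of 14.2, equal to that of the library. A peak in ROSA26 alone was found at 3.12% of protein-coding genes, 623 in number, with a median fold of 3.22. The −log10 p of a peak, the caller's measure of confidence, rests on reads times the scale factor of the library, and the background on that scale was 13.3 (parental), 14.2 (ROSA26) and 9.11 (knockout). At the parental scale, a factor of 0.937, the TFAM peak would have a −log10 p of 15.1, with 9.33% of the parental list below it and a lowest listed value of 5.86. At the knockout scale, a factor of 0.642, it would have 10.8, with 3.98% of the knockout list below it and a lowest value of 4.74. Both values lie above the lowest peak listed in those libraries, where TFAM had no peak. The rescaling starts from a peak that was called and leaves out the counting error of its 55 reads. It also takes summit reads to change in step with the background. Over regions listed in all 3 libraries, summit reads were a median of 0.461 (knockout) and 1.14 (ROSA26) times the parental reads. Summit reads in the knockout were thus lower than its background alone would give. The rescaled values therefore do not show whether a peak of this size would be listed. Why TFAM had no peak in those libraries was not tested. The nearest summit to a TFAM end lay 4405333 bp away in the parental and 4405261 bp away in the knockout library.

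MTERF4 (chromosome 2, 241042586 to 241102287) acts with an RNA methyltransferase in building the large mitochondrial ribosomal subunit. It had folds of 15.9, 18.3 and 12.4 in the parental, ROSA26 and knockout list, the highest of the 10 genes in the last 2. Its summit reads were 262 (231 to 296), 316 (282 to 353) and 173 (148 to 201). The summits lay 49, 39 and 59 bp before the start. Within their own lists these folds ranked 93rd of 3024, 81st of 3857 and 119th of 1660.

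Of the replication genes, SSBP1 and TWNK were marked. SSBP1 (chromosome 7, 141738321 to 141750488) had folds of 16.9, 14.5 and 8.69 in the parental, ROSA26 and knockout list, and the parental value was the highest of the 10 genes. Its summit reads were 303 (270 to 339), 339 (304 to 377) and 94 (76.0 to 115). In the knockout SSBP1 had fewer reads than TWNK, TFB2M, TEFM and MTERF4, whereas in the parental library it had more than TWNK, TEFM and MTERF4 and about as many as TFB2M. The summits lay 19 bp before, 5 bp past and 16 bp before the start. The end of WEE2-AS1, a non-coding RNA gene, lay 72 bp from the parental summit.

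TWNK (chromosome 10, 100987543 to 100994403) had folds of 9.99, 11.3 and 7.83 in the parental, ROSA26 and knockout list. Its summit reads were 231 (202 to 263), 290 (258 to 325) and 131 (110 to 155). The peak lay between TWNK and MRPL43, a gene of the mitochondrial ribosome whose end is at 100987497. The parental summit was nearer to MRPL43 (12 bp) than to TWNK (34 bp). The ROSA26 and knockout summits were nearer to TWNK (5 and 15 bp) than to MRPL43 (41 and 31 bp). The peak thus lay at both genes, and the data do not divide it.

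**Figure D2:**
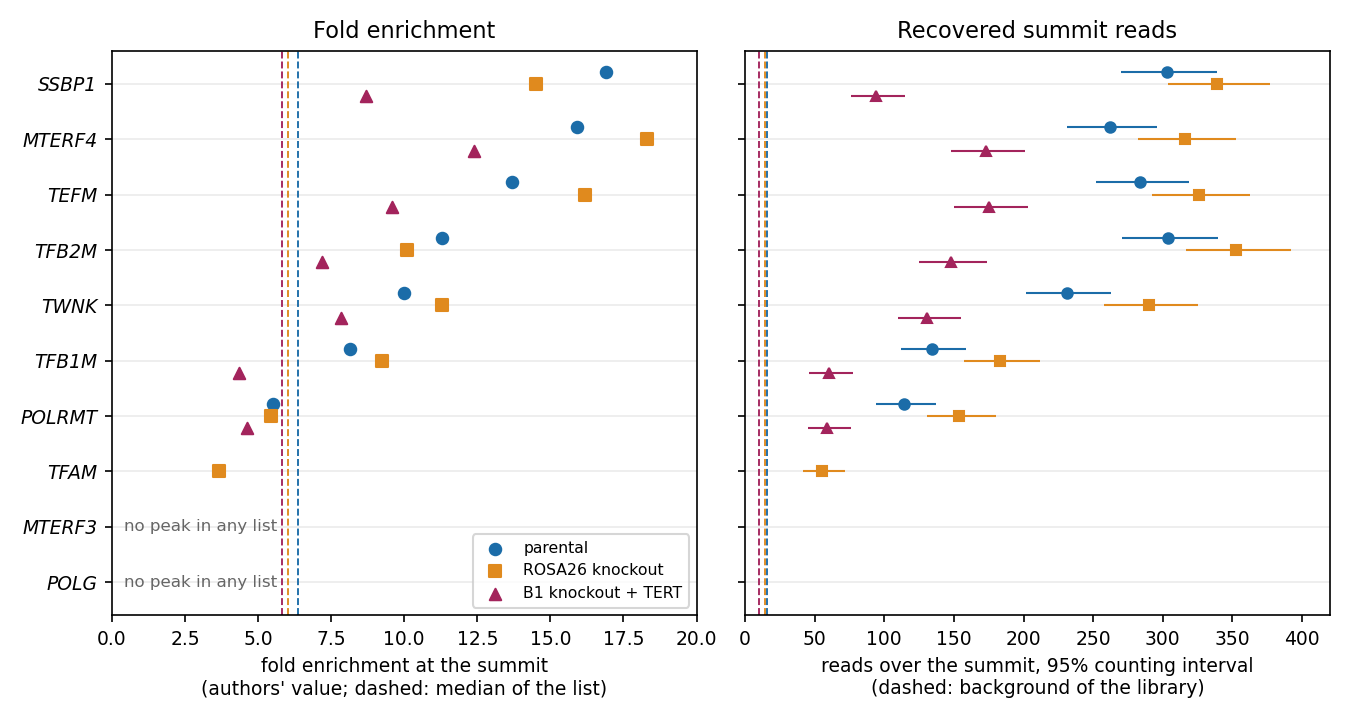
Fold enrichment (left, authors' values) and recovered reads over the summit with 95% counting intervals (right) for the 10 genes in 3 libraries; dashed lines are the median fold of each list and the background of each library. SSBP1, MTERF4, TEFM, TFB2M and TWNK stand above the 3 list medians, POLRMT below them, and TFAM has the ROSA26 value of 3.68 alone.

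The genes without a peak were POLG and MTERF3. POLG (chromosome 15, 89316320 to 89334824) had its nearest summit 72369, 72335 and 72352 bp from an end in the parental, ROSA26 and knockout library. MTERF3, a relative of MTERF4 known as a negative regulator of mitochondrial transcription (chromosome 8, 96239398 to 96261613), had its nearest summit 1519599, 1519563 and 1519576 bp from an end. None of the 10 genes had a summit elsewhere in its span.

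All 7 genes with a peak in both controls also had one in the B1 knockout library. Over all protein-coding genes with a peak in both controls, 60.4% had a knockout peak. That share rose with the parental fold, so each gene is best read against genes of like strength. In 5 equal groups of these 3063 genes by parental fold, from weakest to strongest, a knockout peak was listed for 5.71%, 34.8%, 69.0%, 94.1% and 98.5%. POLRMT fell in the second group (folds 4.26 to 5.99), where the exact 95% interval of the share was 31.0 to 38.7. TFB1M fell in the third group (5.99 to 8.22, interval 65.2 to 72.6), with a fold of 8.16 near the upper edge. TWNK fell in the fourth. TFB2M, TEFM, MTERF4 and SSBP1 fell in the strongest group, where 605 of 614 genes had a knockout peak. With 7 genes the count of 7 was not tested against these shares.

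**Figure D3:**
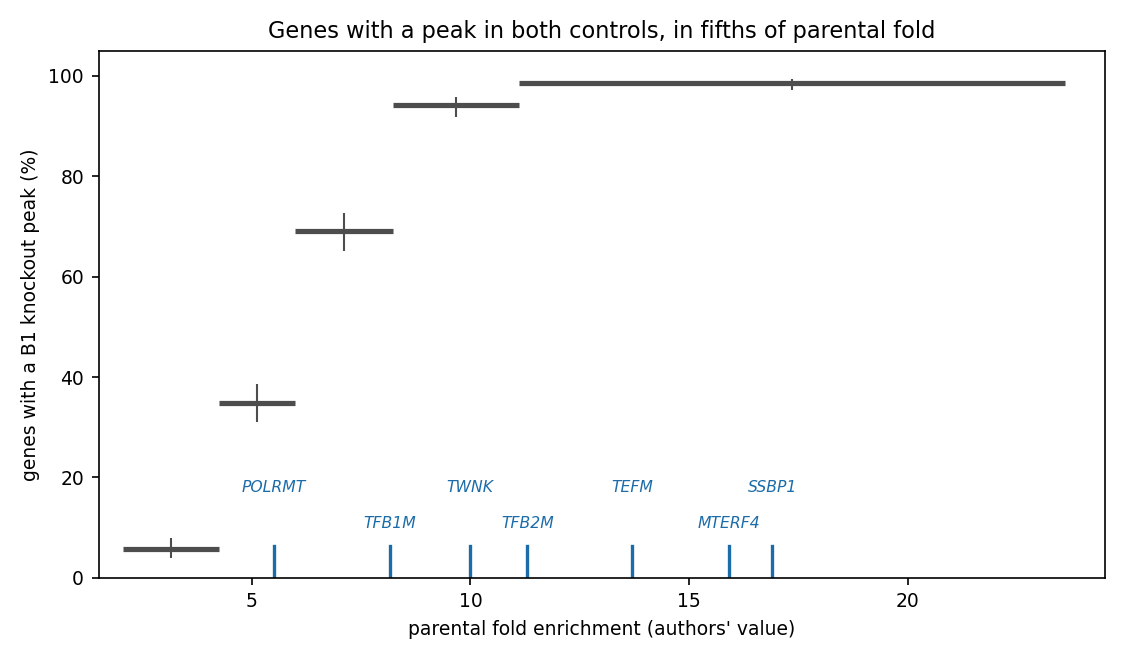
Share of genes with a B1 knockout peak among genes with a peak in both controls, in 5 equal groups by parental fold; horizontal bars span the folds of a group, vertical lines are exact 95% intervals, and ticks mark the parental folds of the 7 genes. POLRMT, at a fold of 5.50, lies in a group with a share of 34.8%, and 4 of the 7 genes lie in the group with 98.5%.

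The 3 libraries differ in depth and length of list, so the 7 genes were also ranked among the 1628 regions that were listed in all 3. These regions are the same in each library. The percentile of fold stayed high at MTERF4 (94.3 parental, 95.1 ROSA26, 92.7 knockout) and at TEFM (87.3, 89.5 and 82.7). SSBP1 stood at 96.0 (parental), 81.5 (ROSA26) and 77.0 (knockout), which dropped by 14.5 points between the controls and by 19.0 points from parental to knockout. Ranked by −log10 p, SSBP1 was at 92.2, 87.6 and 68.1, a drop of 4.6 points between the controls and of 24.1 points from parental to knockout. TFB2M was at 70.9, 46.0 and 65.4, with the lowest value in a control. Ranked by −log10 p, TFB2M was at 83.4, 78.7 and 78.8, so that the gap between the controls was much smaller. TWNK was at 58.9, 58.4 and 69.9, TFB1M at 38.2, 36.3 and 24.1, and POLRMT at 10.0, 5.25 and 30.5 (by −log10 p 9.31, 9.49 and 28.4). Over all shared regions the median absolute change in percentile of fold was 9.03 points from parental to ROSA26 and 13.5 from parental to knockout. By fold, the changes of the 7 genes all lay between the 5th and 95th percentile of the regions in both comparisons. The median percentile of fold of the 7 genes was 70.9, 58.4 and 69.9. Their median fold was 11.3, 11.3 and 7.83, beside 9.12, 10.5 and 5.86 over the shared regions.

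Reads over the summit gave a further comparison that does not use the local background. The reads were not adjusted for depth, and the library background was 15.4 (parental), 14.2 (ROSA26) and 9.86 reads (knockout). A ratio is therefore read against the median of the regions and not against 1. Over the 1628 shared regions the knockout summits held a median of 0.461 times the parental reads (5th to 95th percentile 0.29 to 0.686), and ROSA26 summits 1.14 times (0.9 to 1.35). At SSBP1 the knockout reads were 0.31 times the parental reads, with a 95% counting interval of 0.243 to 0.392 that excludes the median of the regions. At MTERF4 the ratio was 0.66 (0.542 to 0.803) and at TEFM 0.616 (0.507 to 0.747), both with intervals above that median. These 3 genes still lay within the spread of the regions, at percentiles 8.32, 93.1 and 87.6. TFB2M (0.487), TFB1M (0.448) and POLRMT (0.518) had intervals that include the median, and that of TWNK (0.567, 0.454 to 0.706) did as well. In the ROSA26 library all 7 intervals included the median ratio of 1.14. TFB1M (1.37) lay just above the 95th percentile of the regions there and POLRMT (1.35) just below it. The shared regions all have a knockout peak by construction, so sites missing there are not part of this spread.

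**Figure D4:**
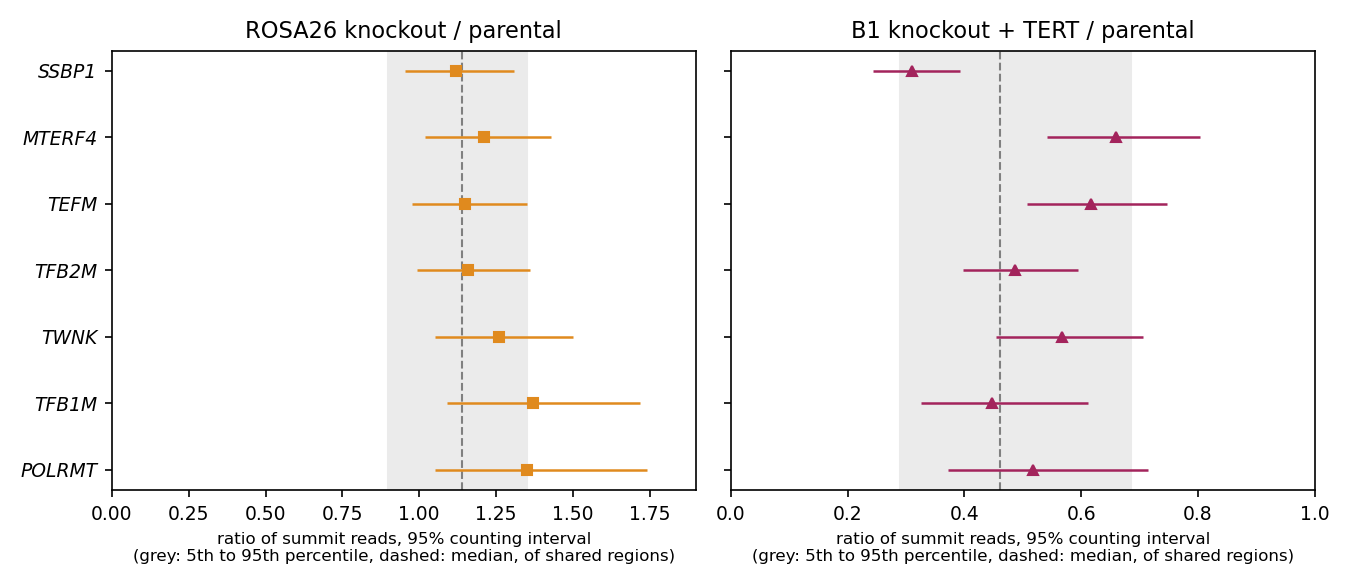
Ratio of summit reads to the parental reads at the 7 genes with a peak in all 3 libraries, ROSA26 on the left and the B1 knockout on the right, with 95% counting intervals; the dashed line and the grey band are the median and the 5th to 95th percentile of 1628 shared regions. In the knockout panel SSBP1 (0.31) lies left and MTERF4 (0.66) and TEFM (0.616) lie right of the median of 0.461, inside the band.

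A wider list of 46 genes of mitochondrial DNA maintenance and its control was read in the same way, with 16 genes marked in parental cells, 19 in ROSA26 and 11 in the knockout. Over all protein-coding genes the shares were 15.5%, 18.5% and 9.32%. All 16 parental genes had a ROSA26 peak, and 11 of them had a knockout peak, beside 60.4% of all genes with peaks in both controls. Of 10 further replication and primer removal genes, 3, 4 and 2 were marked in the parental, ROSA26 and knockout library (all genes 15.5%, 18.5% and 9.32%). TOP3A, a topoisomerase that separates daughter molecules, had folds of 9.16, 11.8 and 4.87 at a peak shared with SMCR8. FEN1, a flap nuclease of the nucleus and the mitochondrion, had 12.2, 16.3 and 8.12, at a peak that lay 264 bp before its start and is shared with TMEM258. RNASEH1, which removes RNA primers, had 4.16 and 5.76 in the controls and no knockout peak. POLG2, the accessory subunit of the DNA polymerase, had a peak in ROSA26 alone (3.39), as TFAM did, and MILR1 shares it. DNA2, EXOG, LIG3, MGME1, PRIMPOL and TOP1MT had none.

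Of 11 genes that supply nucleotides to the mitochondrion, 2 were marked, both in all 3 libraries, a count near the control shares of all genes (15.5% and 18.5%). DGUOK, a deoxynucleoside kinase, had folds of 7.46, 7.95 and 4.89, and MPV17, an inner membrane protein, had 9.18, 7.39 and 4.83. MTERF1, the transcription termination factor, had 8.75, 8.15 and 2.67, and its knockout peak stood at percentile 0.584 of the shared regions. MTERF2 had none. LONP1, the protease that degrades TFAM, had 10.1, 9.44 and 8.67, with CATSPERD beside the same peak. ATAD3B had 5.80 and 8.38 in the controls only, its close copy ATAD3A had no peak, and reads of the pair may not be separable. CLPX had a peak in ROSA26 alone (2.88).

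Of 9 genes that process or stabilise mitochondrial RNA, 4, 5 and 3 were marked (all genes 15.5%, 18.5% and 9.32%). The RNase P subunit TRMT10C had folds of 11.6, 14.2 and 12.4, and ELAC2, which cuts the other end of tRNAs, had 13.5, 13.1 and 13.9. Among the shared regions TRMT10C stood at percentile 74.0 (parental), 79.7 (ROSA26) and 92.8 (knockout). ELAC2 stood at 85.8, 72.1 and 95.5. Its controls lay farther apart than the parental and knockout values, but the knockout value was above both controls. SLIRP had 7.86, 9.78 and 6.41 at a peak shared with ALKBH1. PRORP, the nuclease subunit of RNase P, had 3.75 and 4.83 in the controls and no knockout peak, and PPP2R3C lies within 1 kb of the same summits. HSD17B10 had a ROSA26 peak alone (3.24).

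Of 10 nuclear regulators of these genes, 4 were marked in each control and 2 in the knockout (all genes 15.5%, 18.5% and 9.32%). Of all genes with peaks in both controls, 60.4% had a knockout peak. GABPA itself was marked in all 3 (13.2, 14.3 and 12.5), at a peak shared with ATP5PF. GABPB1, the gene of the B1 subunit (9.39 and 10.3), and GABPB2 (2.74 and 3.78) had peaks in the controls alone. Binding at GABPB1 does not check its knockout, and no expression was measured here. The ESRRA peak (13.7, 17.6 and 14.3) lay 877 bp (parental) past the far end of the gene and is shared with TRMT112 and PRDX5, and no summit lay within 1 kb of the ESRRA start. NRF1, PPARGC1A, PPARGC1B, PPRC1, YY1 and CREB1 had no peak within 1 kb of an end. In the controls the summit nearest to YY1 lay just past that limit, and the summit nearest to PPRC1 lay within 2 kb. The nearest summit to a YY1 end was 1072 (parental), 1097 (ROSA26) and 93619 bp (knockout) away. For PPRC1 these distances were 1931, 1910 and 271011 bp.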

How the data were processed

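GABPA ChIP-seq peak lists of 3 libraries were used, 1 per condition. Per the submitters' processing notes the authors used Bowtie2, SAMtools and MACS2 on hg38. The sources used here give no versions or thresholds and do not say how the input was used. The deposited lists give a fold enrichment (ratio of summit to local background), −log10 values of p and q, and a score equal to 10 times the −log10 q with decimals dropped. Coordinates are hg38, written 1-based.

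Summit reads were solved here from fold and −log10 p with the MACS2 formula (a Poisson tail, whole reads times 1 scale factor per library). All peaks were solved within 0.01 in −log10 p, and the reads of all peaks were recovered in 3 simulated lists. Regions joined peaks that overlapped by 1 bp. Genes and sequences came from RefSeq tables of GRCh38.p14. Python 3.11.15, pandas 2.3.3 and scipy 1.17.1 were used. The members, the wider list of 46 genes and the motifs were chosen with earlier results of these data known. All 10 members are named, with the genes of the wider list that had a peak and the protein-coding genes that share one. The tables give no exons, so positions within genes were not annotated further. No test between conditions was made.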

Additional observations from a re-analysis of the deposited data

How the results depend on the processing

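Most counts of marked genes moved little, and those of the controls fell when the lists were cut to equal length. Under 7 alternatives (summits within 500 bp or 2 kb, start sites only, nearest gene only, −log10 q of at least 10, and lists cut to the 1660 strongest peaks by −log10 p or by fold) every count of members and of the wider list stayed within 1.5 times its main value. With lists of equal length POLRMT dropped out of both controls and TFAM out of ROSA26, leaving 6, 6 and 7 of the 10 genes. The wider list then had 12, 13 and 11 marked genes in the parental, ROSA26 and knockout library, by either measure. In the main setting it had 16, 19 and 11, so its gap between controls and knockout depended on list length. TWNK was lost with start sites only, where it has no entry, and in the parental library when each peak counted for the nearest gene, which gave it to MRPL43. The ETS count was 5 of 8 genes with CCGGAAG, 6 with CGGAAG and 4 with CCGGAAGT.

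The median percentile of the 7 genes depended on what was ranked. It was 84.0 (parental) and 81.9 (ROSA26) among all peaks of the list, and 83.4, 78.7 and 77.3 in the parental, ROSA26 and knockout library when −log10 p took the place of fold. A reciprocal overlap of at least 50% moved these medians by less than their binomial interval. Of the single-gene percentiles under these alternatives, 28 moved beyond that interval and 35 did not. All 21 values with reciprocal overlap were among those that did not. Among all peaks of the list 14 moved and 7 did not, and the 7 were all in the knockout library. With −log10 p in place of fold 14 moved and 7 did not. No paired analysis was possible because each condition had 1 library. For the same reason no library could be left out. The background was 9.86 reads in the knockout against 15.4 and 14.2 in the controls, and the part of depth in the missing weak peaks was not tested.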
